A study of Homo sapiens with 2 samples.

Results

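The genes described here are 56 cadherins, protocadherins, catenins and neural adhesion molecules, chosen by gene symbol and grouped by family. Of these, 52 had at least 1 probe set that carries only their own symbol, out of 19775 named genes on the array. They were compared between C4-2B-MDVR, a human prostate cancer cell line resistant to the antiandrogen enzalutamide, and C4-2B, the enzalutamide-sensitive line from which it was selected during long exposure to the drug. The lines shared a medium with fetal bovine serum and antibiotics and had no treatment before total RNA was taken, and each was measured on 1 Affymetrix array of 54675 probe sets. No genotype or other agent is given for either line, and it is not stated whether C4-2B-MDVR is a clone or a pool. The free-text description of the C4-2B-MDVR sample names a docetaxel-resistant line, TaxR, and that of the C4-2B sample calls it docetaxel-sensitive, whereas title, source and cell line labels name the lines as above. The cell line labels were followed, so each direction given is that of the array carrying the C4-2B-MDVR label relative to the one carrying the C4-2B label. With 1 array per line there is no spread between replicates, and no value below carries an SD or a p-value. In bulk RNA, fewer cells with a transcript and less RNA per cell cannot be told apart.

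Cadherins are calcium-dependent adhesion proteins of the cell surface. The classical ones bind the same cadherin on a neighbouring cell and are tied to actin through catenins, and in prostate epithelium CDH1 (E-cadherin) holds the cells together at adherens junctions. Protocadherins lack that catenin link, FAT, Dachsous and CELSR proteins are giant cadherins that orient cells within a sheet, and contactins, NCAM and L1 proteins, teneurins, leucine-rich repeat proteins, neurexins and neuroligins join neurons during wiring and at synapses.

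Most of the measured adhesion genes were dim or alike on both arrays, and a small number differed widely. The detection floor was set at the median intensity of each array, 43.5 on the C4-2B-MDVR array and 41.9 on the C4-2B array, and the brighter reading of a gene had to reach it. Of the 52 measured genes 27 were above the floor and 25 were under it on both arrays. Of the 27, LRRN1, TENM2, PCDH19, NLGN1 and CDH3 were 2-fold or more higher in C4-2B-MDVR (18.5%), and PCDH7, CNTN3 and TENM1 were 2-fold or more lower (11.1%). Over the array, 3.17% of the 13437 named genes past the floor were 2-fold or more higher and 3.5% were 2-fold or more lower. The adhesion genes were listed with earlier results of these arrays known, and 6 of the 8 passed the floor on 1 array only, so these shares describe the list and support nothing further. Once readings below the floor were set to it, 6 of the 27 genes (22.2%) lay beyond 2-fold, against 5.9% of all genes above the floor.

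The remaining 19 genes above the floor lay between −0.72 and 0.52 on the log2 scale (C4-2B-MDVR minus C4-2B). The median log2 difference of the 27 was 0.08 (−0.0047 after loess), next to 0.04 over all named genes above the floor. Of the 27, 17 were above 0 and 10 below, next to 7409 and 6019 of all genes. The list thus had no common direction, and its wide differences ran both ways.

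**Figure D1:**
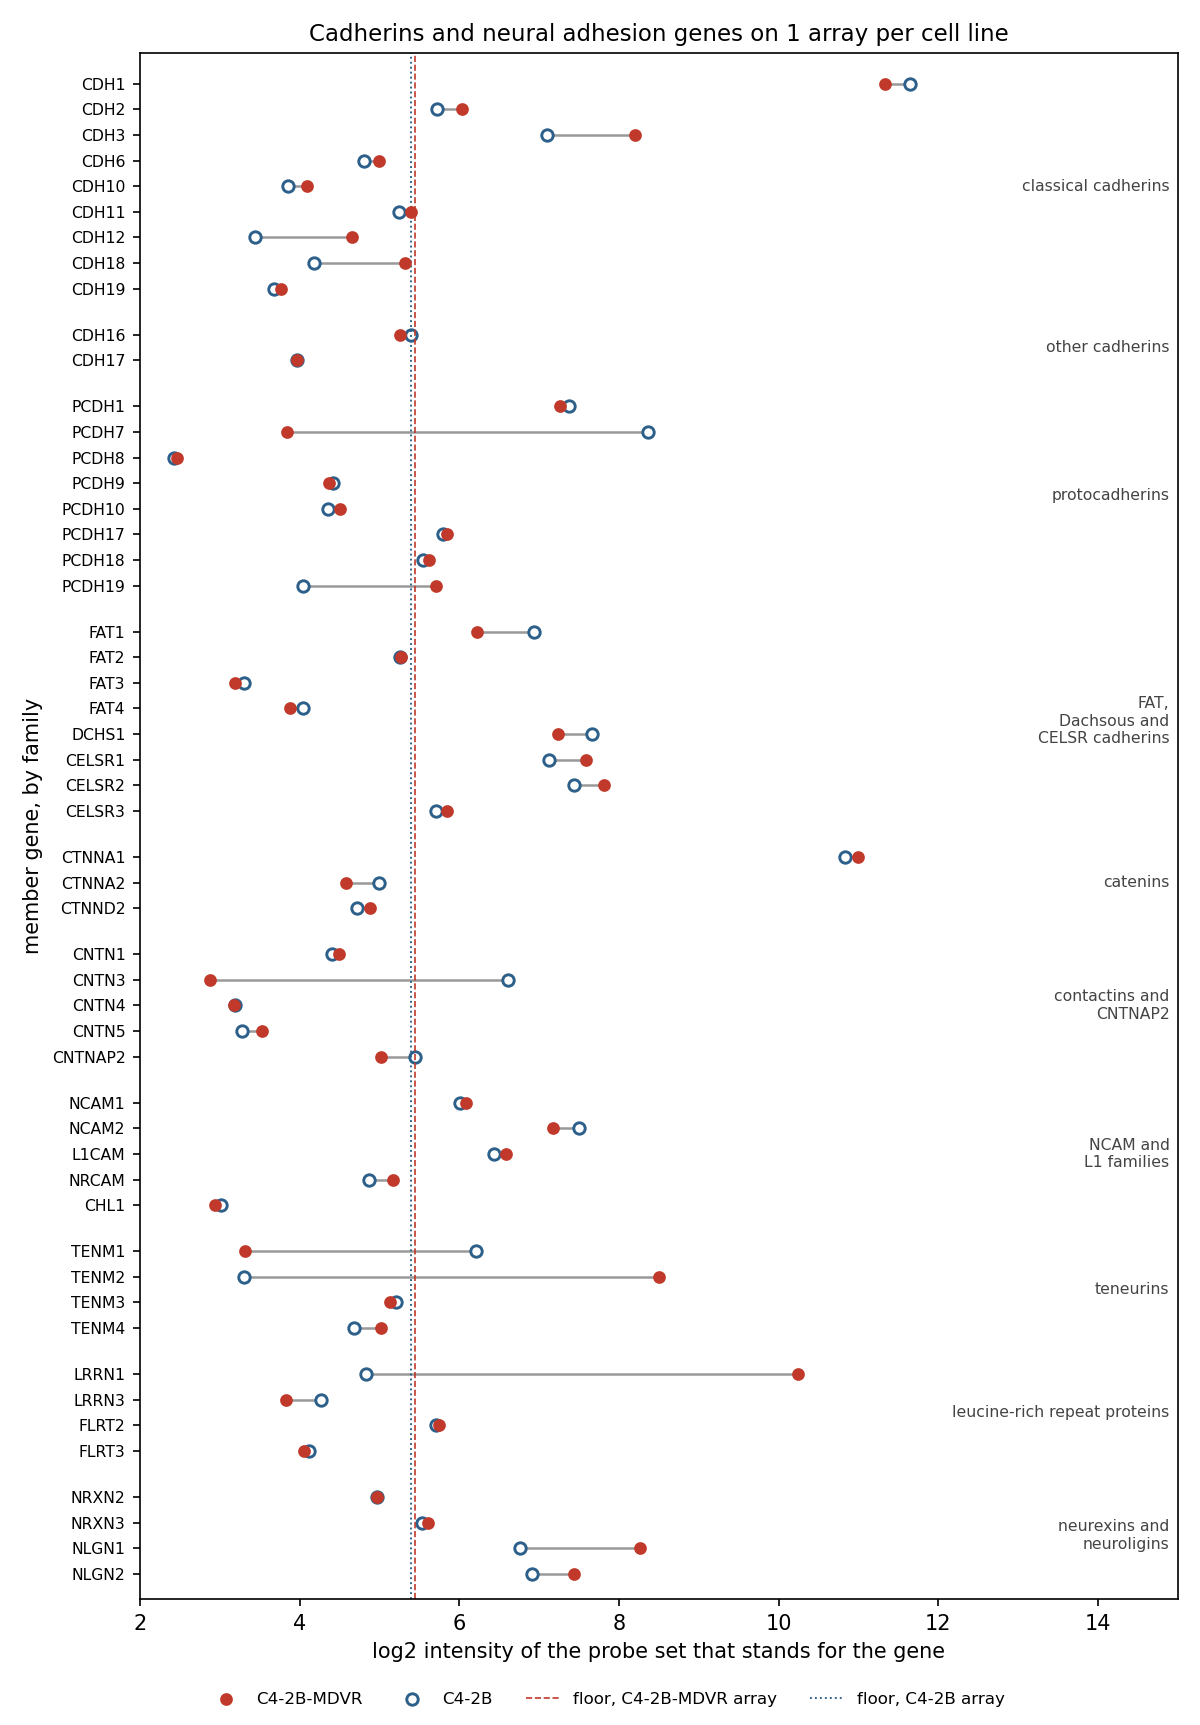
The plot gives the log2 intensity (horizontal axis) of the 52 measured adhesion genes (vertical axis, by family) on the C4-2B-MDVR array (filled red) and the C4-2B array (open blue), with each array's floor as a vertical line. Long connecting lines mark LRRN1, TENM2, PCDH7, CNTN3 and TENM1, each of which lies under the floor on the dimmer array.

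LRRN1, a leucine-rich repeat protein of neuronal membranes, and TENM2, a teneurin that binds latrophilin receptors across the synapse, were the members with the largest higher values in C4-2B-MDVR. LRRN1 had an intensity of 1211 in C4-2B-MDVR, against 28.5 in C4-2B. The C4-2B value was under the floor, so LRRN1 was at least 28.9-fold higher, with a measured log2 difference of 5.41. TENM2 had an intensity of 362 in C4-2B-MDVR, against 9.89 in C4-2B, also under the floor. It was at least 8.65-fold higher, with a measured log2 difference of 5.20. Each of these genes was read by 1 probe set, so no other probe set of the array bears on either value.

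On the lower side stood PCDH7, a protocadherin of brain and heart, and CNTN3, a contactin anchored in the outer membrane of neurons. PCDH7 had an intensity of 14.3 in C4-2B-MDVR, against 329 in C4-2B. The C4-2B-MDVR reading lay below the floor, so PCDH7 was at least 7.56-fold lower there, with a measured log2 difference of −4.52. CNTN3 had an intensity of 7.34 in C4-2B-MDVR, against 97.3 in C4-2B. The measured log2 difference was −3.73. Because the C4-2B-MDVR reading lay below the floor and the C4-2B reading not far above it, the bound is at least 2.24-fold lower. CNTN3 was read by 1 probe set only, as were CDH3 and PCDH19, described below.

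The 250 bases before the annotated starts of these 4 genes are shown as the start regions of the genes with the widest differences, with capitals marking each CG dinucleotide. They are from RefSeq on GRCh38.p14, 5′ to 3′ on the strand of the gene. The LRRN1 window is chr3:3799181-3799430 (plus strand), that of CNTN3 chr3:74614660-74614909 (minus strand) and that of PCDH7 chr4:30720119-30720368 (plus strand). TENM2 has entries for 2 starts on the plus strand, chr5:167072992-167073241 and chr5:167754679-167754928.
LRRN1: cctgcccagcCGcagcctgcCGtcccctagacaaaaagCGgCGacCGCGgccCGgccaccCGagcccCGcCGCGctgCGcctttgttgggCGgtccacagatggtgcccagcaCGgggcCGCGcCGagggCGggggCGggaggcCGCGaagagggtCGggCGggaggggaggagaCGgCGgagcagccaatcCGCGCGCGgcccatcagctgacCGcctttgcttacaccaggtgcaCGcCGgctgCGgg
CNTN3: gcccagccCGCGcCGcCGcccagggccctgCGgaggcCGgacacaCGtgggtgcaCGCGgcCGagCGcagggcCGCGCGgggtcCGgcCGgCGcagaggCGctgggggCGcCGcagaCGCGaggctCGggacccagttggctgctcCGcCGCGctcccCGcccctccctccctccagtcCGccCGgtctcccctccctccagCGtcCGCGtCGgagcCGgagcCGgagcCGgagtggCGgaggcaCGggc
PCDH7: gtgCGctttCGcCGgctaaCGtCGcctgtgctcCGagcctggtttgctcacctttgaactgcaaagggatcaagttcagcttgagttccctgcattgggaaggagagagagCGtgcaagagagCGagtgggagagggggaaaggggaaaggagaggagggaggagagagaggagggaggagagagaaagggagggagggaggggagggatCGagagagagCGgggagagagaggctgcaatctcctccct
TENM2, start 1: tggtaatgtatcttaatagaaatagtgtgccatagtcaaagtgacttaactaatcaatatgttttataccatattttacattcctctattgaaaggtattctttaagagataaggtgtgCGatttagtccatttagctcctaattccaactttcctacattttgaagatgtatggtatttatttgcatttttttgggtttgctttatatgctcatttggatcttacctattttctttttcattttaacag
TENM2, start 2: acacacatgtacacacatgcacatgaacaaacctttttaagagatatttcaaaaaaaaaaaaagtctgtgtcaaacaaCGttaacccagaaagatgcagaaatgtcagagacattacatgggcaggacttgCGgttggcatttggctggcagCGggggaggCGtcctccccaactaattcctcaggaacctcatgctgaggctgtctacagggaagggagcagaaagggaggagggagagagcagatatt

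LRRN1 and CNTN3, which differed in opposite directions, both had CG-dense windows, with 33 and 38 CG dinucleotides against a median of 11 over 35116 promoter windows of the same length. The PCDH7 window had 10, and the TENM2 windows had 1 and 4. Entries were found for 7 of the 8 genes beyond 2-fold, with 10 windows in all. CDH3 had no entry. The remaining windows held 21 CG dinucleotides in PCDH19, 19 and 17 in NLGN1, and 8 and 1 in TENM1. CACCTG, the E-box letters that SNAI and ZEB repressors bind, was searched on both strands and occurred in 1 of the 10 windows, that of LRRN1, and in 17.5% of all windows. AGAACA, the letters of a steroid receptor half-site, occurred on either strand in 0 of the 10 windows and in 12.4% of all windows. No window held both motifs, and a match or its lack describes these letters only.

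Among classical cadherins, CDH3 (P-cadherin, which marks basal epithelial cells of the prostate) was the 1 gene beyond 2-fold. Its intensity was 294 in C4-2B-MDVR, against 137 in C4-2B, a log2 difference of 1.10 with both values above the floor. CDH1, the main epithelial cadherin, had 2580 in C4-2B-MDVR, against 3197 in C4-2B, a log2 difference of −0.31, and its other probe set differed by −0.47. CDH2 (N-cadherin of neural and mesenchymal cells) had 65.3 in C4-2B-MDVR, against 52.9 in C4-2B, a log2 difference of 0.30. These CDH2 readings were not far above the floors of 43.5 and 41.9. Its other probe set was under the floor on both arrays, at 9.84 in C4-2B-MDVR and 9.43 in C4-2B. The pair that is often read as a sign of epithelial or mesenchymal state was thus within 2-fold on these arrays, for CDH2 on a dim signal.

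The other classical cadherins measured were under the floor on both arrays, so no fold is given for them. These were CDH6, CDH10, CDH11, CDH12, CDH18 and CDH19. CDH12 read 25.3 in C4-2B-MDVR, against 10.9 in C4-2B, and CDH18 read 40.0 in C4-2B-MDVR, against 18.1 in C4-2B. Both genes encode cadherins of the brain and lie on chromosome 5, as do CDH6 and CDH10. In both CDH12 and CDH18 the higher reading was still below the array median. Of the cadherins without the classical tail, CDH16 (kidney cadherin) read 38.4 in C4-2B-MDVR, against 42.1 in C4-2B, which lay just above the floor. CDH17 (of liver and intestine) was under the floor on both arrays at 15.6 each. CDH4 and CDH13 had no probe set under their own symbol alone.

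Among protocadherins the picture was split between PCDH7 and PCDH19, with the others alike on both arrays. PCDH19, an X-linked protocadherin of the brain, read 52.1 in C4-2B-MDVR, against 16.4 in C4-2B. Its log2 difference was 1.67, but the C4-2B value was under the floor and the bound is at least 1.24-fold higher. PCDH1, an epithelial protocadherin, read 153 in C4-2B-MDVR, against 165 in C4-2B, and PCDH17 and PCDH18 differed by 0.04 and 0.08 on the log2 scale. PCDH8, PCDH9 and PCDH10 were under the floor on both arrays. PCDH20 was read by 2 probe sets that also carry the symbol of the noncoding gene LINC02339, so neither counted for it. The brighter of these read 6.37 in C4-2B-MDVR, against 113 in C4-2B, a log2 difference of −4.16 that cannot be assigned between the symbols.

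Probe sets within PCDH7 did not read alike. The probe set that stood for the gene was joined by another at 9.82 in C4-2B-MDVR, against 112 in C4-2B, a log2 difference of −3.52. One more above the floor read 58.0 in C4-2B-MDVR, against 65.2 in C4-2B, a log2 difference of −0.17. The other 2 of its 5 probe sets, under the floor on both arrays, differed by −2.06 and −1.29. All 5 thus read lower in C4-2B-MDVR, by very different amounts, and which transcripts each reads was not examined. Over the list, 7 genes had at least 2 probe sets above the floor, and in 5 of them these lay on the same side of 0. The exceptions were CTNNA1 (−0.19 to 0.17) and NLGN2 (−0.19 to 0.52), and both spanned 0 within 2-fold.

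**Figure D2:**
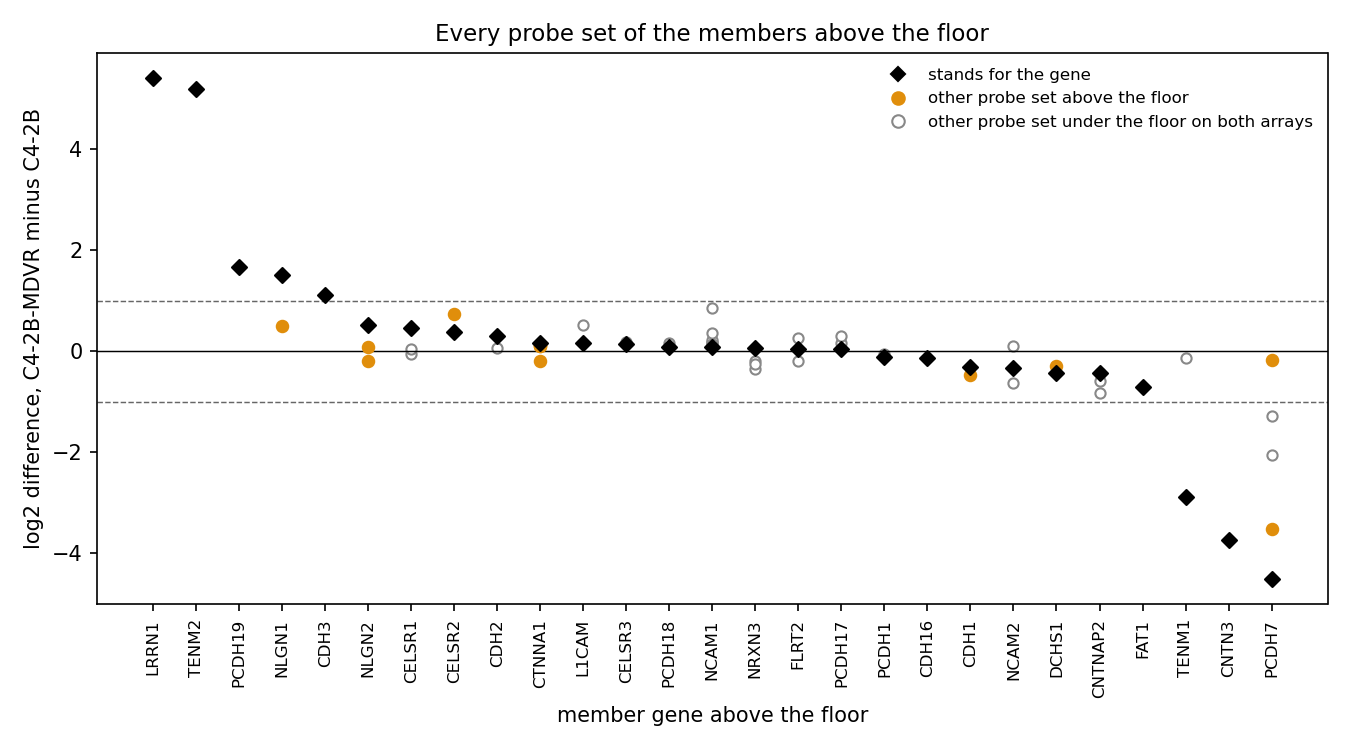
The plot gives the log2 difference, C4-2B-MDVR minus C4-2B (vertical axis), of every probe set of the 27 adhesion genes above the floor (horizontal axis), with diamonds for the probe set that stands for the gene, orange for others above the floor and open circles for those under it on both arrays. Dashed lines mark 2-fold, and the PCDH7 probe sets spread from −4.52 to −0.17.

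The giant cadherins of tissue polarity were all within 2-fold. FAT1, a very large cadherin that restrains growth in several epithelia, had the widest difference of the family, with 74.6 in C4-2B-MDVR, against 123 in C4-2B (log2 difference −0.72). DCHS1, the ligand of FAT4, read 151 in C4-2B-MDVR, against 202 in C4-2B (−0.42). The CELSR genes, which align neighbouring cells in planar polarity, were above 0. CELSR1 differed by 0.46, CELSR2 by 0.38 (0.73 in its other probe set) and CELSR3 by 0.14. FAT2, FAT3 and FAT4 were under the floor on both arrays.

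Catenins link cadherins to the cytoskeleton, and the measured ones were within 2-fold. CTNNA1 (alpha-catenin of epithelia) read 2047 in C4-2B-MDVR, against 1819 in C4-2B, a log2 difference of 0.17. CTNNA2 and CTNND2, the neural forms, were under the floor on both arrays. CTNND1 (p120 catenin, which keeps cadherins at the surface) was read by 4 probe sets that also carry the symbol of the readthrough gene TMX2-CTNND1, and these differed by −0.87 to 0.10. The probe set for −0.87 read 320 in C4-2B-MDVR, against 585 in C4-2B. It stood apart from the other 3, which lay between −0.0040 and 0.10, and none counted for CTNND1.

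Of the other contactins among the members, CNTN1, CNTN4 and CNTN5 were under the floor on both arrays. CNTNAP2, a neurexin-like protein that gathers potassium channels on axons, read 32.3 in C4-2B-MDVR, against 43.6 in C4-2B, with the C4-2B value barely above the floor. Its 4 probe sets differed by −0.82 to −0.43, all on the lower side, 3 of them under the floor on both arrays.

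The NCAM and L1 families showed no difference of 2-fold. NCAM1 (CD56, a marker often used for neuroendocrine tumours) read 67.9 in C4-2B-MDVR, against 64.5 in C4-2B, a log2 difference of 0.08. Its 6 other probe sets were under the floor on both arrays, with measured differences up to 0.85. NCAM2 differed by −0.33 and L1CAM, which promotes neurite growth and cell migration, by 0.15. NRCAM and CHL1, the other L1-type proteins listed, were under the floor on both arrays.

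Teneurins went both ways. TENM2 was higher as given above, whereas TENM1 read 9.97 in C4-2B-MDVR, against 73.8 in C4-2B. The C4-2B-MDVR value of TENM1 was under the floor, so the measured log2 difference of −2.89 amounts to at least 1.70-fold lower by bound, short of 2-fold. Its other probe set was under the floor on both arrays and differed by −0.13. TENM3 and TENM4 were under the floor on both arrays. Each array thus had 1 teneurin above its floor, TENM2 on the C4-2B-MDVR array and TENM1 on the C4-2B array.

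Teneurins and the FLRT proteins both bind latrophilins, the ADGRL receptors. ADGRL1 read 465 in C4-2B-MDVR, against 572 in C4-2B (log2 difference −0.30). ADGRL2 read 10.8 in C4-2B-MDVR, against 76.7 in C4-2B, at least 1.76-fold lower by bound with a measured log2 difference of −2.83. The other ADGRL2 probe set was under the floor on both arrays and differed by −0.01. ADGRL3 was under the floor on both arrays. FLRT2 differed by 0.05, and FLRT3 and LRRN3, a relative of LRRN1, were under the floor on both arrays. LRRN1 was thus the 1 member of its family beyond 2-fold.

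Both neuroligins listed, which are the postsynaptic partners of neurexins, were above the floor on both arrays. NLGN1, of excitatory synapses, read 309 in C4-2B-MDVR, against 108 in C4-2B, a log2 difference of 1.51 with both values above the floor. Its other probe set above the floor read 67.9 in C4-2B-MDVR, against 48.2 in C4-2B, a log2 difference of 0.49, so the size of the difference depends on the probe set. NLGN2, of inhibitory synapses, read 173 in C4-2B-MDVR, against 121 in C4-2B (0.52). Of the neurexins, NRXN3 read 48.8 in C4-2B-MDVR, against 46.5 in C4-2B (0.07), just above the floor, and NRXN2 was under the floor on both arrays.

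The named genes on either side of each of the 8 genes, taken in RefSeq gene order from those above the floor, were mostly within 2-fold. That is the usual case on these arrays, where 6.67% of all named genes above the floor lay beyond 2-fold in either direction. Up to 5 neighbours were taken on each side. Median log2 differences of the neighbours ranged from −0.26 around TENM2 to 0.14 around PCDH19. CDH3 lies next to CDH1 on chromosome 16, and its 10 neighbours were all within 2-fold. Around PCDH7 on chromosome 4, 9 of 10 were within 2-fold, with PGCKA1 higher (1.15). Around TENM1 on the X chromosome 8 of 10 were within 2-fold, with XIAP (−1.09) and APLN (−1.17) lower. Around CNTN3 on chromosome 3, 8 of 10 were within 2-fold, with GXYLT2 higher (1.76) and GBE1 lower (−1.01). LRRN1, near the end of chromosome 3, had 8 neighbours, of which ITPR1 was 2-fold or more higher (1.09). TENM2, PCDH19 and NLGN1 each had 9 of 10 neighbours within 2-fold, the exceptions being HMMR (−1.12), ZNF711 (2.91) and TNFSF10 (−1.18). Some of these neighbour differences rest on a reading under the floor, that of ZNF711, PGCKA1 and GXYLT2 in C4-2B and of TNFSF10 in C4-2B-MDVR. The C4-2B reading of TNFSF10, 5.47 on the log2 scale, was itself just above its floor of 5.39.

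**Figure D3:**
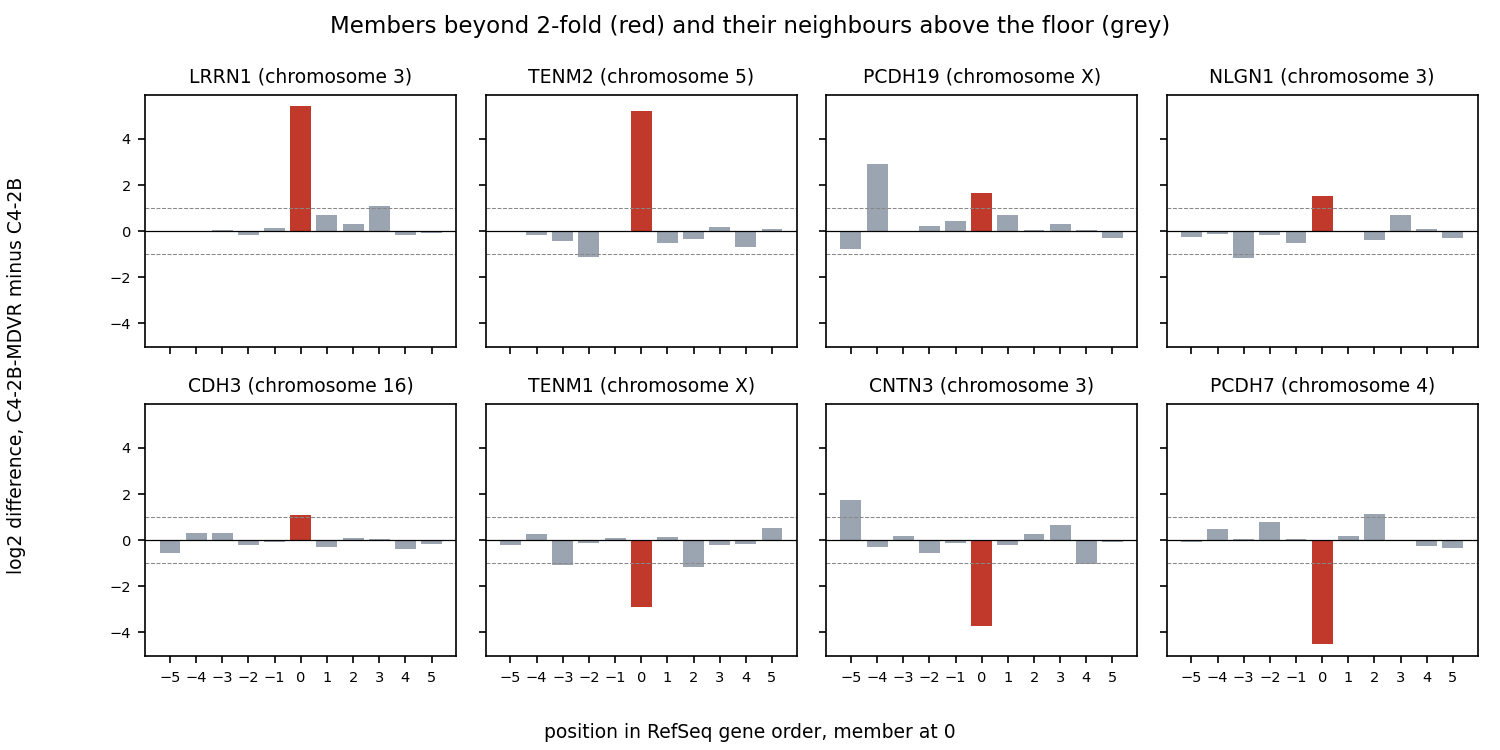
Each panel gives the log2 difference, C4-2B-MDVR minus C4-2B (vertical axis), of a gene beyond 2-fold (red, at 0) and of its neighbours above the floor in gene order (grey, horizontal axis in steps). Dashed lines mark 2-fold, and in 7 of the 8 panels the red bar, as measured, is larger in size than every grey bar. The exception is PCDH19, with ZNF711 at 2.91. Red genes were picked for lying beyond 2-fold and grey ones were not, so this count supports nothing further. With readings under the floor set to it, PCDH19 is 0.31 and TENM1 is −0.76. TENM1 is then smaller in size than its neighbours XIAP (−1.09) and APLN (−1.17). CNTN3 is then −1.16, smaller in size than its neighbour GXYLT2. That gene read 6.73 on the log2 scale in C4-2B-MDVR, against a C4-2B floor of 5.39.

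Partners of the adhesion genes were listed by function. The share of genes above the floor beyond 2-fold ran from 0% in some lists to 23.1% of the 13 synaptic partners. Over all named genes above the floor it was 6.67%. The lists are short, so these shares describe them only. Among 18 adherens junction partners above the floor the 1 gene beyond 2-fold was NECTIN3, an immunoglobulin-type protein that starts junctions together with cadherins. NECTIN3 read 165 in C4-2B-MDVR, against 10.9 in C4-2B, at least 3.95-fold higher by bound, and its other probe set was under the floor on both arrays. CTNNB1 (beta-catenin) differed by 0.28, JUP (plakoglobin) by 0.36, ACTN1 by 0.65 and ACTN4 by −0.43. The list median was 0.17.

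Desmosomes are the stronger spot junctions of epithelia, built on the cadherins called desmogleins and desmocollins. Of 8 such genes above the floor DSG2 was 2-fold or more lower, with 1487 in C4-2B-MDVR, against 3121 in C4-2B (log2 difference −1.07, and −0.81 in its other probe set). The plaque protein DSP (−0.81), the desmocollin DSC2 (−0.55) and PPL (−0.49) were lower by less than 2-fold. The other 4 genes lay between 0.02 and 0.16, and the list median was −0.23.

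Of 5 repressors of CDH1 above the floor SNAI2 (Slug) was beyond 2-fold, with 14.8 in C4-2B-MDVR, against 129 in C4-2B, at least 2.97-fold lower by bound. SNAI1 differed by 0.41, GSC by 0.40 and TCF4 by −0.77, and ZEB1 and ZEB2 were under the floor on both arrays. Among 11 genes of cadherin and L1 processing the sheddase ADAM9 read 502 in C4-2B-MDVR, against 1466 in C4-2B (−1.55, and −1.15 in another probe set). CBLL1 (Hakai), a ubiquitin ligase that removes E-cadherin from the surface, differed by −1.16, while ADAM15 differed by 0.60 and BACE1 by 0.44. ADAM10, the main sheddase of several cadherins, differed by 0.16. The 3 polysialic acid transferases were under the floor on both arrays.

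Planar polarity partners had a median of −0.23 over 11 genes, and of 0.0036 with readings under the floor set to it. VANGL2, a core polarity protein, was the 1 beyond 2-fold at 1.69, by a bound of at least 1.25-fold higher, and FJX1 differed by −0.96, LIX1L by 0.91 and FZD3 by −0.75. Synaptic partners had a median of 0.15 over 13 genes. CBLN2, a secreted protein that bridges neurexins to glutamate receptor proteins, read 1603 in C4-2B-MDVR, against 435 in C4-2B (1.88). LINGO1, a leucine-rich repeat protein that limits axon growth, differed by 1.06. ADGRL2, given above at −2.83, had the widest difference of this list and was its 1 gene 2-fold or more lower, and SLITRK6 differed by −0.85. LINGO1 and CBLN2 had both values above the floor.

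The remaining lists held 1 gene beyond 2-fold. Of 17 other immunoglobulin adhesion molecules EMB (embigin) was beyond 2-fold at −1.33 (−0.77 in its other probe set), with ROBO1 at 0.66, NFASC at 0.61 and CADM1 at 0.48, and a median of 0.06. Of 11 other cadherins 0 were beyond 2-fold and 10 were above 0 (over all genes, 7409 were above and 6019 below), with the calsyntenins CLSTN3 at 0.94 and CLSTN1 at 0.27. CDHR1 (0.30) and CDHR5 (0.20) followed, and the list median was 0.14. The clustered protocadherins, which give neurons their identity codes, had 33 of 53 genes measured and 7 above the floor. These 7 lay between −0.19 (PCDHGA9) and 0.28 (PCDHB11), with PCDHB3 at 0.26 and PCDHB13 at 0.20, so none of the 7 was beyond 2-fold. Probe sets with several symbols were not examined for the clustered protocadherins.

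**Figure D4:**
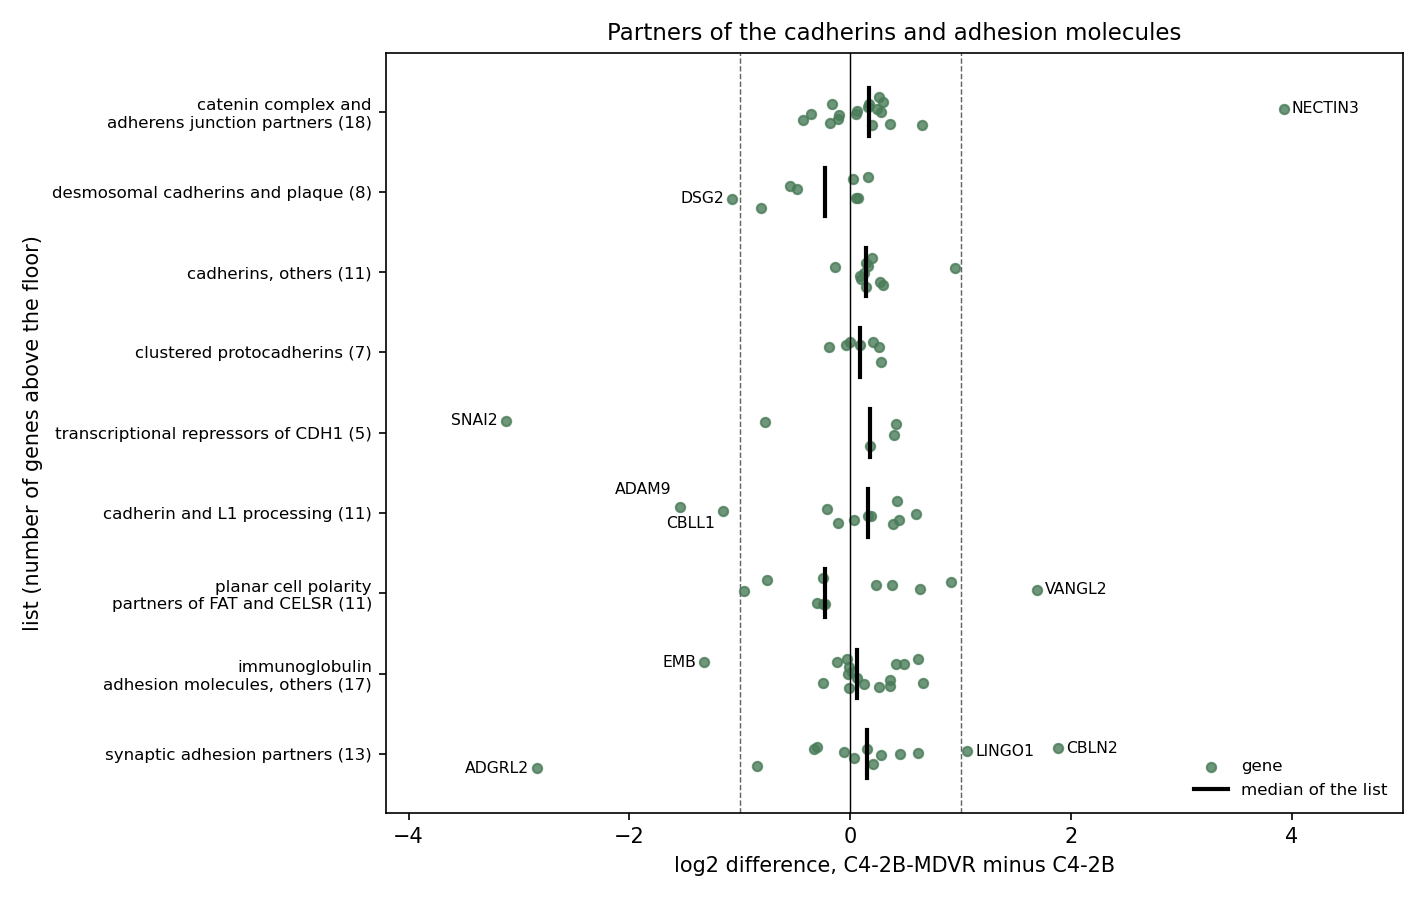
The plot gives the log2 difference, C4-2B-MDVR minus C4-2B (horizontal axis), of the partner genes above the floor by list (vertical axis), with a bar at each list's median and dashed lines at 2-fold. NECTIN3 lies farthest to the higher side at 3.92 and SNAI2 farthest to the lower side at −3.12.

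Cell type markers moved little. All 6 measured markers of prostate luminal epithelium were above the floor, with log2 differences from −0.62 (KRT19) to 0.32 (KRT8) and summed intensities of 9643 in C4-2B-MDVR and 10077 in C4-2B. Of 5 neuronal markers 4 were above the floor, with differences from 0.01 to 0.67 (SYN1) and summed intensities of 1826 in C4-2B-MDVR and 1752 in C4-2B, most of it TUBB3, and ELAVL4 was under the floor. Glial markers summed to 399 in C4-2B-MDVR and 457 in C4-2B, fibroblast markers to 388 in C4-2B-MDVR and 419 in C4-2B, blood markers to 190 in C4-2B-MDVR and 177 in C4-2B, and endothelial markers to 168 in C4-2B-MDVR and 163 in C4-2B. In these 4 lists 9 of 17 genes were above the floor, none beyond 2-fold. Those under it on both arrays were COL1A2, COL3A1, LUM, PTPRC, CD14, CDH5, KDR and OLIG2. Markers above it included COL1A1, with 217 in C4-2B-MDVR and 255 in C4-2B, and MBP, with 316 in C4-2B-MDVR and 370 in C4-2B. CD3E, HBB, PECAM1, VWF, DCN, PDGFRB and, on the C4-2B array only, GFAP were the others above it. Their part in the adhesion gene differences was not tested.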

How the data were processed

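Total RNA was extracted with Trizol, amplified, fragmented, biotin-labelled and hybridised to Affymetrix arrays, 1 per cell line, per the labels' protocols. The labels name whole-transcript amplification and labelling kits, whereas probe sets of this array design lie mostly near the 3′ ends of transcripts, and what this does to the values was not tested. The deposited intensity values are on a linear scale, as their range from 4.31 to 20839.7 shows. How the authors corrected, normalized and summarized them is not given in the sources used here, and the deposited table was read without detection calls. The deposited intensity values were log2-transformed without rescaling. Of 54675 probe sets, 41097 carry 1 gene symbol in the platform annotation of 2016, 1801 carry several and named no gene, and 11777 are unnamed here. Symbols were checked by identifier against RefSeq genes of GRCh38.p14, where 41043 matched and 0 changed. Coordinates are those of the promoter windows in RefSeq only, because no build is named for the files. The probe set with the highest mean stood for a gene. The floor was each array's median, and a bound (at least N-fold) divides the brighter reading by the floor of the other array. Beyond 2-fold means a log2 difference of at least 1 or at most −1.

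With 1 array per line no test was possible, and precision is limited by the number of arrays. The members, lists and rules were chosen with earlier results of these data known. Named were all members beyond 2-fold, CDH1, CDH2, NCAM1, CTNNA1 and CTNND1, up to 4 further members per family, and in each partner list the 4 genes above the floor with the largest difference plus CTNNB1, JUP, SNAI2, ZEB1 and ZEB2. Members and partners named beyond these, the neighbours, the latrophilins and ADAM10 were picked with their values in view. Alternatives were 3 rescalings (loess span 0.3), averaging the probe sets of a gene, other floors, other fold thresholds, values raised to the floor, and probe sets with several symbols. The calling step was tested on simulated data, with shifts added only to genes bright on both arrays. Recovery of a shift in genes with a reading near or under the floor was thus not tested. Python 3.11.15, numpy 2.4.6, pandas 2.3.3, statsmodels 0.14.6 and matplotlib 3.10.9 were used.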

Additional observations from a re-analysis of the deposited data

How the results depend on the processing

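Median centring, quantile normalization and loess left the same 5 genes higher and the same 3 lower, with medians of 0.023, 0.020 and −0.0047 over the adhesion genes, so that after loess the median changed sign. Averaging all probe sets of a gene left the same 5 and 3 genes, but with PCDH7 at −2.31, TENM1 at −1.51 and NLGN1 at 1.0. Over all genes, 445 were higher and 425 lower after quantile normalization, next to 426 and 470 in the deposited scale. A floor at the 75th percentile left 13 adhesion genes, of which 1 (PCDH7) was 2-fold or more lower and 4 were higher. Their median was 0.38, and over all genes 280 were higher. By construction this removes dimmer genes, PCDH19, CNTN3 and TENM1 among them. Raising values to the floor took PCDH19 (0.31) and TENM1 (−0.76) within 2-fold. A floor at the 25th percentile, or none, added CDH12 and CDH18 to the higher genes. Counting probe sets with several symbols added PCDH20 to the lower genes. At 3-fold 3 adhesion genes were higher (PCDH19, TENM2 and LRRN1) and 3 lower, with 195 higher and 161 lower over all genes. At 1.5-fold FAT1 joined the lower genes, with 1110 higher and 1252 lower over all genes. With averaged probe sets 293 of all genes were higher and 302 lower, out of 11772 above the floor. None of the 12 adhesion genes followed singly, the 8 beyond 2-fold and CDH1, CDH2, NCAM1 and CTNNA1, changed sign under these alternatives. Other floors leave a gene's difference as it is, and fold thresholds do not bear on its sign. The 8 were picked for a difference of 2-fold or more, so their unchanged sign supports nothing further. No paired analysis was possible because each line has 1 array. Signal over background limits the genes under the floor, for which no difference could be shown.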
